A study of Mus musculus with 14 samples.

Results

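Genes of the extracellular matrix, of matrix turnover, of TGF-beta signalling and of hepatic stellate cells were followed across liver tissue of Abcb11-/- and wild-type mice. The group holds 48 genes, taken by symbol from the 54532 genes of the count table: 13 collagens, 3 proteoglycans, 7 matrix glycoproteins, 3 tissue inhibitors of metalloproteinases, 2 matrix metalloproteinases, 3 lysyl oxidases, 4 contractile or filament proteins, 2 PDGF receptors, 6 genes of TGF-beta ligands, receptor and latency proteins, the TGF-beta target Ctgf, and 4 markers of stellate cells or pericytes. All 48 were found, and all 48 passed the filter on low counts, which left 17874 genes to test.

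Stellate cells lie between hepatocytes and sinusoidal endothelium and store retinoids. When the liver is injured, and portal fibroblasts when bile ducts are injured, they can turn into myofibroblasts that make fibrillar collagen, and TGF-beta and PDGF are the best known signals for that change. The amount of matrix laid down also depends on its turnover, since metalloproteinases cut it, their inhibitors restrain them, and lysyl oxidases cross-link it.

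RNA sequencing covered 14 libraries of 5 groups, all from C57BL/6J mice, a common inbred strain, at an age of 52 weeks. These were tumour tissue of Abcb11-/- females (n = 3), non-tumour liver of Abcb11-/- females (n = 3), liver of wild-type females (n = 2, numbered 2 and 3, number 1 not analysed here), liver of Abcb11-/- males (n = 3) and liver of wild-type males (n = 3). Abcb11 encodes the bile salt export pump of hepatocytes, and the labels say neither which stretch of the gene is deleted nor whether a tumour and a non-tumour library of equal number share an animal. The submitters' design text gives 3 mice per group, but no label ties a library to an animal, so p-values measure the spread between these libraries.

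Abcb11 served as a check of the labels. It averaged 25.2 ± 8.34 CPM in tumours, 25.0 ± 9.61 CPM in non-tumour knockout females and 379 ± 154 CPM in wild-type females, and 80.7 ± 21.0 CPM in knockout males against 309 ± 12.3 CPM in wild-type males (SD). Levels here are CPM, a count set against the TMM-scaled library total, from library totals of 14745140 to 19480538 counts, and mitochondrial genes took 15.7 to 42.2% of a library, with non-tumour 1, non-tumour 3 and knockout male 3 lowest at 19.1, 16.7 and 15.7%. The 12 hepatocyte markers summed to between 28100 and 97300 CPM in the 14 libraries. A library of the wild-type males, number 3, stood apart from the other 2 of its group, with a lymphocyte marker sum of 486 CPM against 15.3 and 10.9 CPM.

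Per length, in the authors' deposited FPKM, the most abundant members were Col18a1, which encodes the precursor of endostatin, and Fn1, fibronectin, at 84.2 and 37.9 FPKM on average over the 14 libraries. Hepatocytes are known to make both. Mmp14, Bgn, Dcn, Vim and Sparc followed, at 22.6, 17.6, 17.3, 13.7 and 12.6 FPKM, so that 7 members averaged at least 10 FPKM. Another 27 lay between 1 and 10 FPKM, among them Acta2 at 6.38, Col3a1 at 5.23, Col1a1 at 3.60 and Timp2 at 4.06 FPKM. The remaining 14 lay under 1 FPKM, with Tagln at 0.288 and Lox at 0.226 FPKM lowest. The order of neighbours should be read with their spread, since Acta2 alone ran from 0.713 to 46.1 FPKM.

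**Figure D1:**
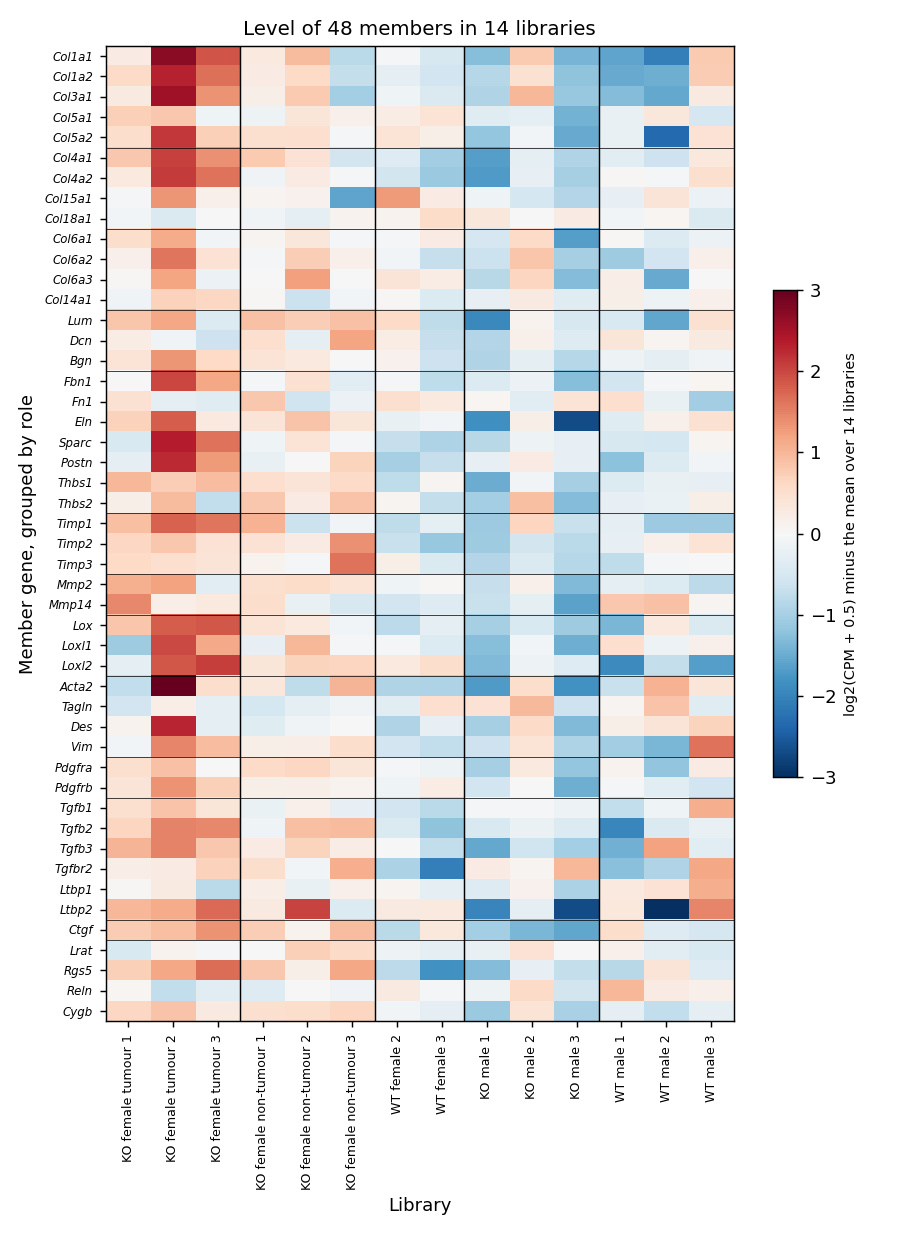
Level of the 48 members (rows, grouped by role) in the 14 libraries (columns, grouped), as log2(CPM + 0.5) minus the member's mean over all libraries, so red is above and blue below that mean. Tumour 2 holds the highest level of 28 of the 48 members, most fibrillar and basement membrane collagens among them.

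The distribution over libraries was uneven. Tumour 2 held the highest level of 28 of the 48 members, while it held the highest level of 8.03% of all genes tested. Knockout male 3 held the lowest level of 14 members and knockout male 1 of 10. Within the knockout males, number 2 stood above the other 2 libraries in type I and type III collagen, and within the wild-type males number 3 did. The summed level of Col1a1, Col1a2 and Col3a1 was 102, 454 and 235 CPM in the tumours, 92.2, 134 and 42.3 CPM in non-tumour knockout liver, and 70.3 and 55.9 CPM in wild-type females. It was 39.8, 139 and 33.2 CPM in knockout males and 28.5, 24.8 and 116 CPM in wild-type males. In males the groups therefore overlapped, with 1 high library in each.

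The first comparison set tumours of knockout females against liver of wild-type females. Of the 48 members 6 passed an edgeR adjusted p of 0.05, all of them higher in the tumours: Col4a1, Col4a2, Sparc, Postn, Timp2 and Rgs5. By role these were 2 of 4 basement membrane collagens, 2 of 7 matrix glycoproteins, 1 of 3 inhibitors of metalloproteinases and 1 of 4 markers of stellate cells or pericytes, with 0 in every other role. That is 12.5% of the members, against 9.61% of all genes tested that were called in either direction and 3.94% that were called higher. The median log2 fold change of the members was 1.25, against 0.03 over all genes tested, and 43 of the 48 lay above 0, against 51.1% of all genes. In 30 members every tumour lay above both wild-type libraries, 62.5% against 24.8% of all genes. Of the members Col18a1 alone lay below them throughout, while 27.6% of all genes did.

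Col4a1 and Col4a2 encode the chains of the main type IV collagen of basement membranes. Col4a1 (ENSMUSG00000031502) lies on chromosome 8 at 11198423 to 11312826 and Col4a2 (ENSMUSG00000031503) at 11312805 to 11449287 (GRCm38). The genes run away from each other on opposite strands, and their annotated first bases overlap by 22 bases. Those bases are shown, read on the strand of Col4a2 at chr8:11312805-11312826 from RefSeq (GRCm38.p6), because the pair that moved together shares them.
Col4a2/Col4a1 shared start: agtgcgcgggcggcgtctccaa
Fragments within those 22 bases cannot be assigned to either gene where the counting ignores strand, and the strand setting is not given in the sources used here. Col4a1 stood at 44.4, 105 and 65.5 CPM in the tumours, against 19.1 and 11.9 CPM in wild-type females. All tumours were higher, and the log2 fold change was 2.21 ± 0.51 (SE, edgeR adjusted p = 0.0177). Every SE of a fold change here is its size divided by the root of edgeR's F statistic, so it is derived from the test. Col4a2 stood at 22.5, 80.6 and 58.0 CPM in the tumours, against 12.4 and 8.29 CPM in wild-type females. The groups did not overlap, with a log2 fold change of 2.38 ± 0.50 (edgeR adjusted p = 0.0111). Per length the chains were close, at 9.09 ± 4.0 FPKM for Col4a1 and 7.69 ± 4.25 FPKM for Col4a2 in the tumours, and 1.98 ± 0.673 and 1.49 ± 0.442 FPKM in wild-type females (SD, the authors' FPKM). The other basement membrane collagens, Col15a1 and Col18a1, had log2 fold changes below 0 and did not pass.

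**Figure D2:**
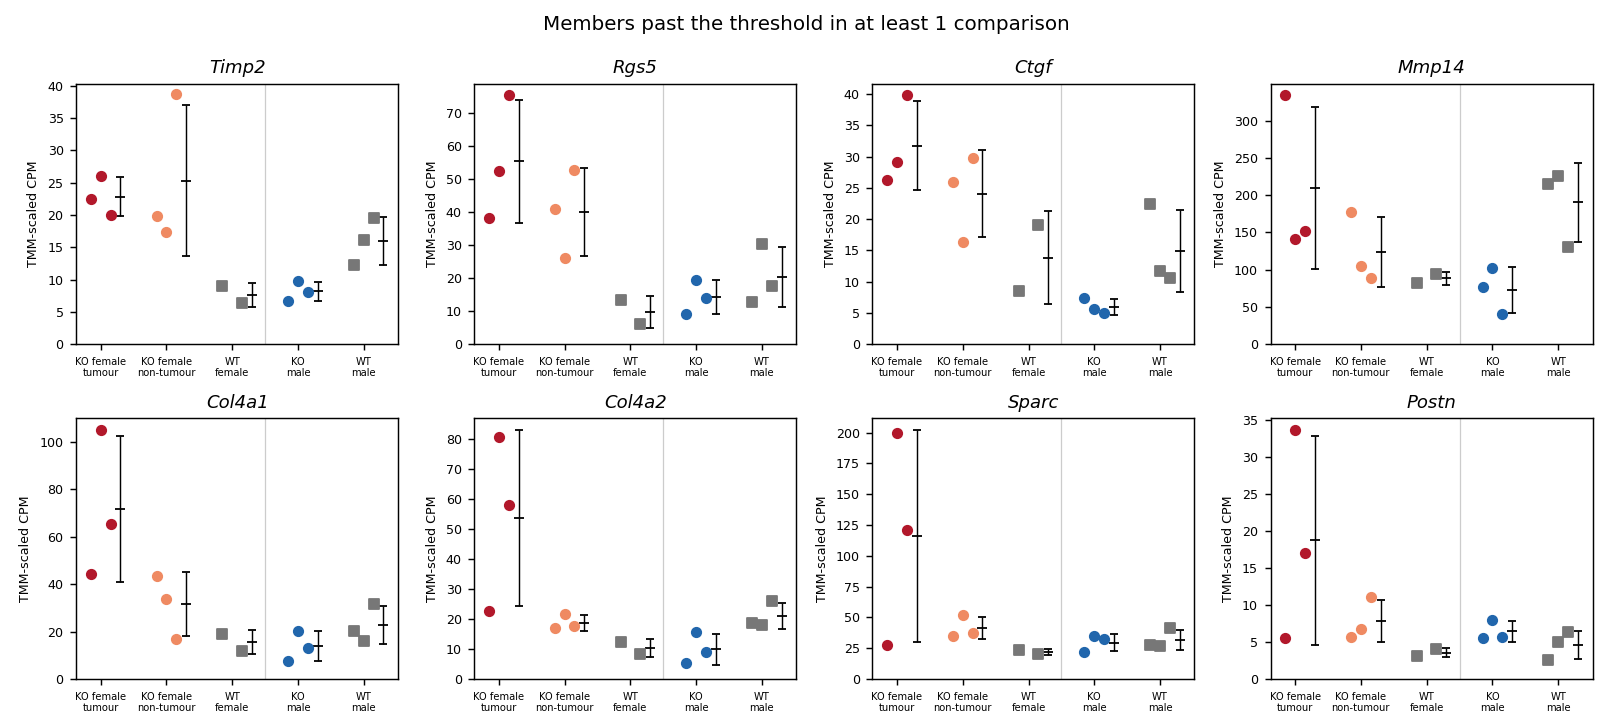
Scaled level (CPM, linear axis from 0) of the 8 members past the threshold in at least 1 comparison, 1 point per library, with the mean and SD of each group beside the points. Timp2 is high in both tissues of knockout females relative to wild-type females and low in knockout males relative to wild-type males, Ctgf is low in knockout males while its non-tumour libraries overlap those of wild-type females, and tumour 2 holds the highest Col4a1, Col4a2, Sparc and Postn.

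Sparc and Postn encode matricellular proteins: SPARC binds collagen and helps its assembly, and periostin is secreted by activated fibroblasts. Sparc (ENSMUSG00000018593, chromosome 11, 55394500 to 55423183) stood at 27.8, 200 and 121 CPM in the tumours, against 23.7 and 20 CPM in wild-type females. Tumour 1 was close to the wild-type libraries while the other tumours were far above them, and the log2 fold change was 2.41 ± 0.59 (edgeR adjusted p = 0.0234). Postn (ENSMUSG00000027750, chromosome 3, 54361109 to 54391037) stood at 5.56, 33.7 and 17.0 CPM in the tumours, against 3.12 and 4.0 CPM in wild-type females. Its log2 fold change was 2.39 ± 0.62 (edgeR adjusted p = 0.0254), again with tumour 1 nearest to the wild type. Without tumour 2, Sparc gave 1.81 and Postn 1.71 and neither passed, nor did they without tumour 3.

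Rgs5, a regulator of G protein signalling that marks pericytes and vascular mural cells, had the smallest adjusted p of the members. Rgs5 (ENSMUSG00000026678, chromosome 1, 169655501 to 169695813) stood at 38.4, 52.6 and 75.5 CPM in the tumours, against 13.3 and 6.26 CPM in wild-type females. The groups were far apart, with a log2 fold change of 2.51 ± 0.49 (edgeR adjusted p = 0.00723). The 250 bases before its RefSeq start and before that of Postn are shown, as the promoter windows of members that were higher in the tumours, from RefSeq (GRCm38.p6) on the plus strand at chr1:169655251-169655500 and chr3:54360857-54361106. Capitals mark the TATA box letters TATAAA.
Rgs5: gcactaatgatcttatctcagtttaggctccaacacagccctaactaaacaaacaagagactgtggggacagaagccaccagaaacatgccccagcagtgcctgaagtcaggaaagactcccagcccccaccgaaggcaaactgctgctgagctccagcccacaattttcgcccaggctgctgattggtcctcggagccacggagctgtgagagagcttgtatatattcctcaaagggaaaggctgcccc
Postn: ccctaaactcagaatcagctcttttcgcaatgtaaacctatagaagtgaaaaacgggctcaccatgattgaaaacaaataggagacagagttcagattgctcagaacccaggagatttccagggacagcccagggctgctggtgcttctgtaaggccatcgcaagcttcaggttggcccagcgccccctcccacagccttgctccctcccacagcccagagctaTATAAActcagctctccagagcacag
In Postn, TATAAA begins 26 bases before the RefSeq start, which is not the same base as the start in the files' annotation, and in Rgs5 these letters are not in the window. Promoter entries existed for 31 members, and in the 250 bases before the start, searched on both strands, TATAAA was present in 5 of them (Col3a1, Postn, Tgfb2, Thbs2 and Vim), against 12.4% of all 32851 windows. The AP-1 letters TGANTCA were present in 1 member, Col6a1, against 6.75% of windows, and the GC box letters GGGCGG in 16 members, against 32.7%. The palindromic SMAD letters GTCTAGAC were in 0 members, against 0.167%. A match describes letters and is no evidence of binding.

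Timp2 encodes an inhibitor of metalloproteinases that also takes part in activating pro-MMP2 together with MMP14. Timp2 (ENSMUSG00000017466, chromosome 11, 118301069 to 118355740) stood at 22.5, 26 and 20 CPM in the tumours, against 8.98 and 6.31 CPM in wild-type females. The tumours lay close together and above both wild-type libraries, and the log2 fold change was 1.58 ± 0.36 (edgeR adjusted p = 0.0141). Timp1, the inhibitor most often induced in fibrosis, stood at 1.48, 3.15 and 2.74 CPM in the tumours, against 0.125 and 0.385 CPM in wild-type females. All tumours were higher at these low levels, with a log2 fold change of 3.21 ± 1.64 that did not pass (edgeR adjusted p = 0.225).

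The fibrillar collagens had high folds and wide spread. Col1a1, a chain of type I collagen, stood at 19, 106 and 60.0 CPM in the tumours, against 15.3 and 11.2 CPM in wild-type females. The groups did not overlap, but tumour 1 lay just above the wild type, and the log2 fold change of 2.22 ± 1.10 did not pass (edgeR adjusted p = 0.225). Col1a2, the other type I chain, and Col3a1, type III collagen, reached 2.12 ± 0.82 and 1.96 ± 0.90 in log2 fold change (edgeR adjusted p = 0.124 and 0.190). Col1a2 stood at 35.8, 121 and 75.8 CPM in the tumours, against 19.6 and 16 CPM in wild-type females. Col3a1 stood at 46.9, 227 and 99.4 CPM in the tumours, against 35.4 and 28.7 CPM in wild-type females. For both, every tumour was above the wild type and tumour 2 was highest. Without tumour 2 the log2 fold changes of Col1a1, Col1a2 and Col3a1 were 1.61, 1.69 and 1.23.

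Among the tumours, contractile and filament genes were highest in number 2. Acta2, smooth muscle actin and the usual myofibroblast marker, stood at 3.52, 85.9 and 9.18 CPM in the tumours, against 3.06 and 3.04 CPM in wild-type females. Tumour 1 was level with the wild type, and the log2 fold change of 3.43 ± 1.38 did not pass (edgeR adjusted p = 0.141) and was 1.10 without tumour 2. Des, desmin of stellate and muscle cells, stood at 15.1, 70.4 and 11.4 CPM in the tumours, against 7.23 and 11.7 CPM in wild-type females. The groups overlapped, and the log2 fold change of 1.77 ± 0.75 did not pass (edgeR adjusted p = 0.152) and was 0.52 without tumour 2. Tagln, another smooth muscle protein, stayed under 1 CPM in every female library.

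Of the signalling genes given here, Tgfb1, Pdgfrb and Ctgf lay above the wild type in every tumour and did not pass. Tgfb1, the main TGF-beta ligand, stood at 17.8, 23.4 and 16.5 CPM in the tumours, against 8.36 and 6.99 CPM in wild-type females. The groups did not overlap, and the log2 fold change was 1.33 ± 0.42 (edgeR adjusted p = 0.0596). Pdgfrb, the PDGF receptor of stellate cells, stood at 23.4, 46.3 and 29.6 CPM in the tumours, against 16.3 and 21.0 CPM in wild-type females. The lowest tumour was just above the highest wild type (edgeR adjusted p = 0.166). Ctgf, a matricellular TGF-beta target, stood at 26.3, 29.1 and 39.9 CPM in the tumours, against 8.54 and 19.1 CPM in wild-type females, with a log2 fold change of 1.20 ± 0.40 (edgeR adjusted p = 0.0716). Its groups did not overlap either. Lrat, which esterifies retinol in quiescent stellate cells, and Reln, a secreted protein of stellate cells, overlapped between the groups. Lrat stood at 5.75, 8.80 and 7.71 CPM in the tumours, against 7.17 and 6.55 CPM in wild-type females, and Reln at 27.1, 15.5 and 20.8 CPM, against 31.7 and 25.1 CPM (edgeR adjusted p = 0.869 and 0.450).

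**Figure D3:**
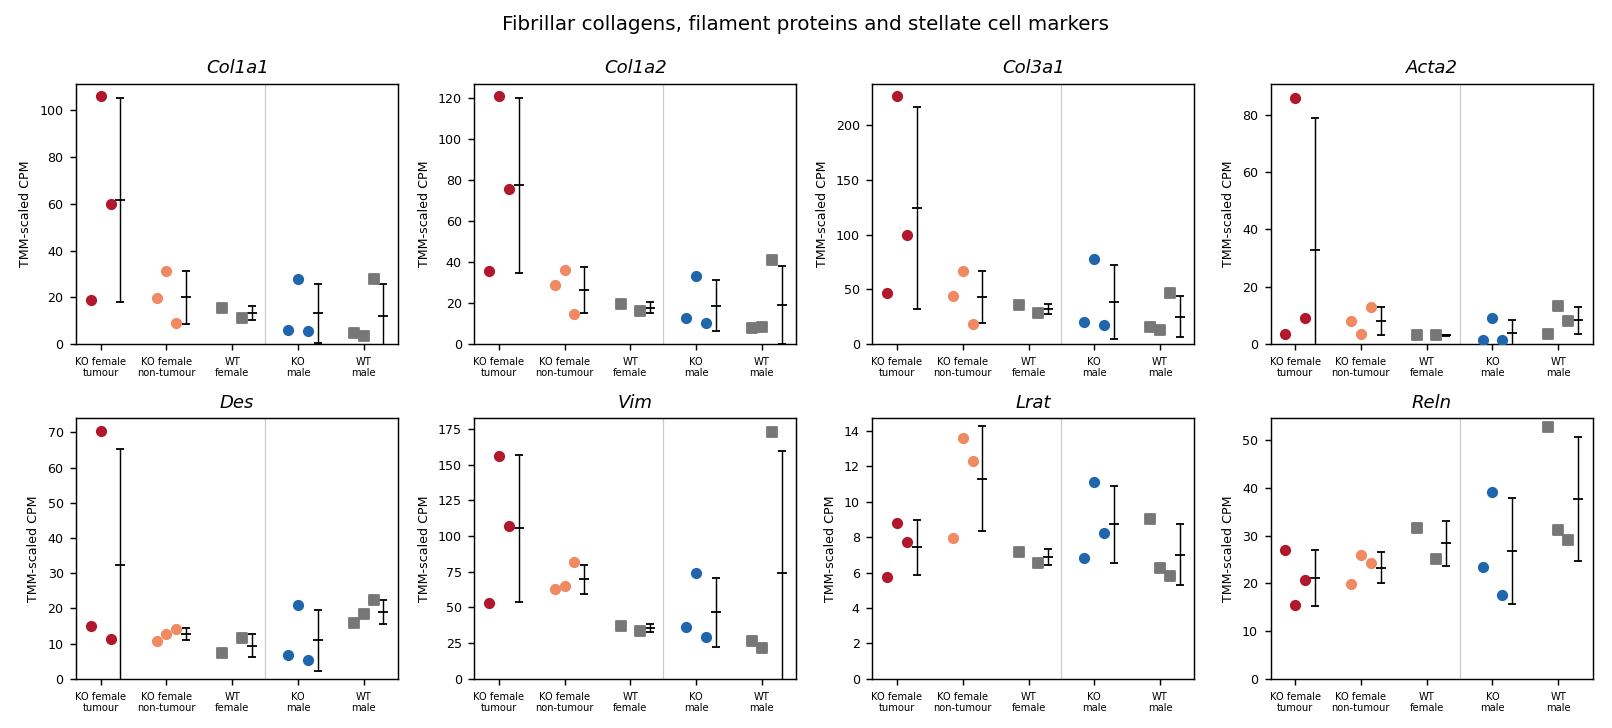
Scaled level (CPM, linear axis from 0) of fibrillar collagen, filament and stellate cell genes, 1 point per library, with the mean and SD of each group beside the points. Tumour 2 holds the highest Col1a1, Col1a2, Col3a1, Acta2 and Des, wild-type male 3 the highest Vim, and Lrat and Reln overlap between tumours and wild-type females.

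By role, the lysyl oxidases ranged from 1.26 to 2.97 in log2 fold change and the proteoglycans from 0.04 to 1.03, and no member of either group passed. Leaving out either wild-type female left 1 library in that group, assumed to vary like the other groups, so only folds are given. Without number 2 the log2 fold changes of Col4a1, Col4a2, Sparc and Postn were 2.58, 2.7, 2.54 and 2.23. Without number 3 they were 1.93, 2.14, 2.32 and 2.61, with Timp2 at 1.37 and Rgs5 at 2.08. Called members numbered 10 without wild-type male 1 and 12 without wild-type male 3, where 11% and 14.4% of all genes were called. They numbered 12 in a fit of the compared groups alone, where 15.1% of all genes were called. In the fit of the compared groups alone Sparc and Postn did not pass. The count was 19 with DESeq2, 22 with limma-voom and 21 without the low-count filter, where 17%, 25.9% and 8.72% of all genes were called.

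Other genes of matrix making and signalling were read from lists beside the members. Among 20 genes of collagen processing and cross-linking, 2 were higher and 1 lower in the tumours than in wild-type females. Tgm2, a transglutaminase that cross-links matrix, averaged 198 ± 29.2 CPM in the tumours, against 48.1 ± 15.8 CPM in wild-type females (log2 fold change 2.04 ± 0.43, edgeR adjusted p = 0.0103). P4hb, a subunit of collagen prolyl hydroxylase, was higher by 1.38 ± 0.38 (edgeR adjusted p = 0.0353), and Bmp1, a procollagen C-proteinase, was lower at −1.37 ± 0.30 (edgeR adjusted p = 0.0119). Of 20 basement membrane genes 1 passed, Lama5, a laminin chain, at 125 ± 77.5 CPM in the tumours, against 24.7 ± 0.509 CPM in wild-type females (2.34 ± 0.47, edgeR adjusted p = 0.00879). Of 25 TGF-beta signalling genes, Ltbp3, a latency protein, was higher (1.78 ± 0.42, edgeR adjusted p = 0.0189) and the inhibitor Smad7 was lower (−1.23 ± 0.35, edgeR adjusted p = 0.0396). Of the 18 growth signal genes tested, the PDGF ligands Pdgfa and Pdgfb were higher, at 1.56 ± 0.40 and 2.17 ± 0.55 (edgeR adjusted p = 0.0249 and 0.0241). Vegfa, an endothelial growth factor, was lower at −1.57 ± 0.30 (edgeR adjusted p = 0.00631). Of 17 other genes of matrix degradation tested, 0 passed in edgeR, while 5 were higher and 1 lower at an unadjusted p under 0.05.

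Markers of other cells moved with these results. Cholangiocyte markers, 12 of 12 tested, summed to 745 to 1490 CPM in the tumours, against 209 to 355 CPM in wild-type females. Most of that sum was 1 gene, Spp1, at 609 to 1270 CPM in the tumours and 112 to 248 CPM in wild-type females. The 3 that rose were Krt7 (2.41 ± 0.66), Krt19 (2.65 ± 0.74) and Spp1 (2.29 ± 0.68, edgeR adjusted p = 0.0338, 0.0402 and 0.0472). Macrophage markers, 15 of 15 tested, summed to 339 to 459 CPM in the tumours, against 134 to 155 CPM in wild-type females, and 3 rose: Csf1r, C1qa and Trem2. Endothelial markers, 14 of 14 tested, summed to 425 to 557 CPM in the tumours, against 298 to 327 CPM in wild-type females, with Cdh5, Vwf and Stab1 higher. Portal fibroblast markers, 13 of 14 tested, summed to 285 to 432 CPM in the tumours, against 153 to 188 CPM in wild-type females, with 1 higher, Emilin1 (1.0 ± 0.27, edgeR adjusted p = 0.0320). Smooth muscle markers were 150 to 423 CPM in the tumours, against 182 to 319 CPM in wild-type females. Mylk alone held 119 to 191 CPM in the tumours and 153 to 296 CPM in wild-type females. The median log2 fold change of the 11 tested was 1.74, with 0 called by edgeR and 3 higher at an unadjusted p under 0.05. The 17 stellate markers summed to 474 to 655 CPM in the tumours, against 465 to 527 CPM in wild-type females. In bulk tissue fewer cells of a type and less RNA per cell cannot be told apart. The part of these cells in the members' levels was not tested.

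The next comparison set non-tumour liver of knockout females against that of wild-type females. Timp2 and Rgs5 were higher in the knockout, and they were the 2 of 48 members that passed. That share, 4.17%, lay next to the 4.16% of all genes tested that were called in either direction, with 1.9% called higher. The median log2 fold change of the members was 0.69, against 0 over all genes, and 41 of 48 lay above 0, against 49.9% of all genes. In 21 members all non-tumour libraries lay above both wild-type libraries, 43.8% against 23.2% of all genes. Col15a1 and Col18a1 lay below, 4.17% against 26.5% of all genes. This comparison and that of the tumours share the wild-type libraries, so the values are given side by side and are not separate evidence.

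Timp2 stood at 19.9, 17.4 and 38.7 CPM in non-tumour knockout liver, against 8.98 and 6.31 CPM in wild-type females. All knockout libraries were higher and number 3 highest, with a log2 fold change of 1.73 ± 0.36 (edgeR adjusted p = 0.0201). Rgs5 stood at 41.1, 26.3 and 52.8 CPM in non-tumour knockout liver, against 13.3 and 6.26 CPM in wild-type females. The groups were again separate, with a log2 fold change of 2.04 ± 0.48 (edgeR adjusted p = 0.0306). Tgfbr2, the signalling TGF-beta receptor, had the highest fold of the members, 2.08, which did not pass (edgeR adjusted p = 0.109), and is named because of that value. It stood at 24.0, 15.8 and 35.9 CPM in non-tumour knockout liver, against 8.36 and 3.66 CPM in wild-type females, without overlap.

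Of the 13 collagens 0 passed in non-tumour liver, where 4.16% of all genes did, and 4 did not overlap between the groups. Over all genes, 23.2% lay wholly above the wild type and 26.5% wholly below it. On the log2 scale Col4a2 lay above the wild type by 0.86 ± 0.47 and Col6a2 by 0.72 ± 0.59 (edgeR adjusted p = 0.321 and 0.523). Col15a1 lay below it, at −1.19 ± 0.55, as did Col18a1, at −0.43 ± 0.29 (edgeR adjusted p = 0.228 and 0.425). Col1a1 stood at 19.7, 31.4 and 8.95 CPM in non-tumour knockout liver, against 15.3 and 11.2 CPM in wild-type females, so knockout number 3 was lowest of all. Col4a1 stood at 43.5, 33.9 and 16.9 CPM in non-tumour knockout liver, against 19.1 and 11.9 CPM in wild-type females, and its log2 fold change of 1.02 ± 0.49 did not pass (edgeR adjusted p = 0.247). Acta2 stood at 7.97, 3.44 and 13.0 CPM in non-tumour knockout liver, against 3.06 and 3.04 CPM in wild-type females. Its libraries did not overlap, and the log2 fold change of 1.42 ± 1.27 did not pass (edgeR adjusted p = 0.573). Lrat stood at 7.97, 13.6 and 12.3 CPM in non-tumour knockout liver, against 7.17 and 6.55 CPM in wild-type females, also without overlap (edgeR adjusted p = 0.250). Col6a1, Col6a2, Col6a3 and Col14a1 ranged from −0.04 to 0.72 in log2 fold change and the 3 proteoglycans from 0.44 to 0.84.

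**Figure D4:**
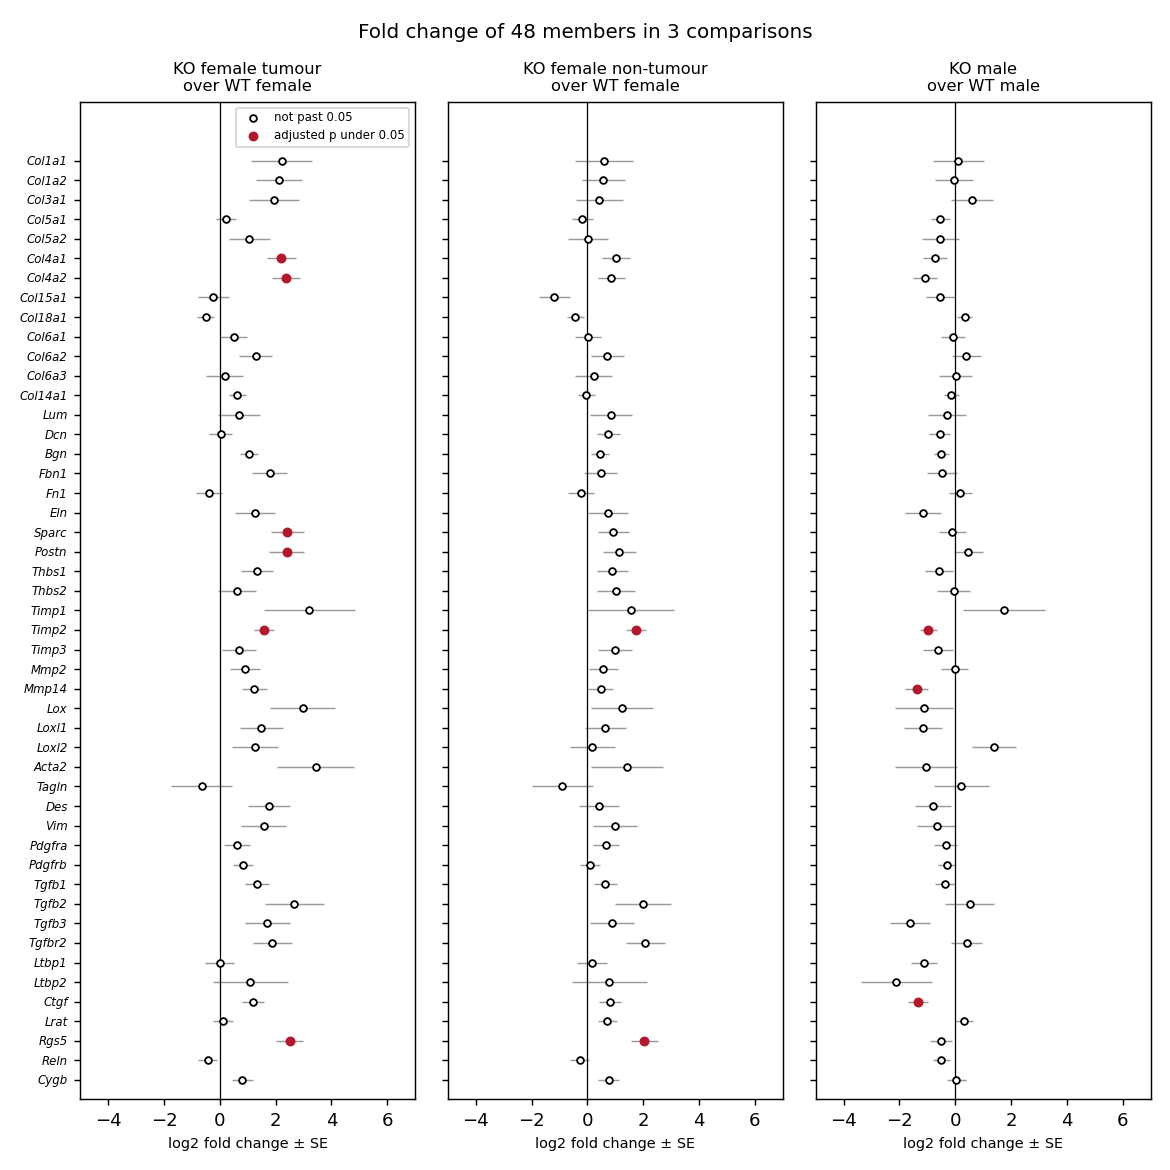
Log2 fold change ± SE (edgeR) of the 48 members in tumours over wild-type females, non-tumour knockout liver over wild-type females, and knockout over wild-type males. Filled points passed an adjusted p of 0.05: 6 and 2 higher in the female comparisons, which share the wild-type libraries, and 3 lower in males.

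Beside the members, the 17 stellate markers summed to 418 to 606 CPM in non-tumour knockout liver, against 465 to 527 CPM in wild-type females. Bmp1 was lower at −1.78 ± 0.30 (edgeR adjusted p = 0.00846), as were Lamb3, a laminin chain, at −1.76 ± 0.37 and Vegfa at −1.32 ± 0.30 (edgeR adjusted p = 0.0206 and 0.0276). Of the 25 TGF-beta signalling genes 0 passed in edgeR, with 3 higher and 1 lower at an unadjusted p under 0.05, and of the 17 matrix degradation genes 0 passed, with 1 higher unadjusted. Macrophage markers summed to 314 to 586 CPM in non-tumour knockout liver, against 134 to 155 CPM in wild-type females, with Csf1r, C1qa and Trem2 higher (1.26, 1.94 and 3.43, edgeR adjusted p = 0.0256, 0.0276 and 0.0388). Cholangiocyte markers summed to 510 to 646 CPM in non-tumour knockout liver, against 209 to 355 CPM in wild-type females. Spp1 alone held 354 to 488 CPM in non-tumour knockout liver and 112 to 248 CPM in wild-type females. Of the 12 markers 0 passed in edgeR, with 4 higher at an unadjusted p under 0.05. Their part in the members' levels was not tested. The 2 calls were both lost without non-tumour number 3, where 0.82% of all genes were called, against 4.16% with all libraries. That of Rgs5 was also lost without non-tumour number 1, where 1.11% of all genes were called. Dropping either wild-type library left 1 in that group, so only folds are given. With wild-type number 2 dropped, the log2 fold changes of Timp2 and Rgs5 were 2.01 and 2.68. With number 3 dropped they were 1.54 and 1.63. Without the low-count filter 7 members passed, where 6.03% of all genes did.

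The comparison of tumours with non-tumour liver of knockout females gave no call: 0 of 48 members passed the adjusted threshold in edgeR, as did 0 of all genes tested (0%). At an unadjusted p under 0.05, 8 members passed, all higher in tumours: Col1a2, Col4a1, Col4a2, Col14a1, Fbn1, Sparc, Postn and Pdgfrb. That is 16.7%, against 6.81% of all genes in either direction and 3.18% higher. DESeq2 called 0 members and 29 genes (0.162%), limma-voom 0 members and 0 genes, edgeR with the library number as a block 0 members and 1 gene, and edgeR without the low-count filter 8 members and 338 genes (1.17%). The median log2 fold change of the members was 0.58, against −0.01 over all genes, with 35 of 48 above 0, against 49.4% of all genes. In 9 members all tumours lay above all non-tumour libraries, 18.8% against 6.38% of all genes: Col4a1, Col4a2, Col5a2, Bgn, Thbs1, Lox, Pdgfrb, Tgfb1 and Tgfb3.

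Col4a2 had the smallest p of the members, with 22.5, 80.6 and 58.0 CPM in the tumours, against 16.9, 21.8 and 17.6 CPM in non-tumour liver. The lowest tumour was just above the highest non-tumour library, and the log2 fold change was 1.52 ± 0.42 (edgeR adjusted p = 0.665). Sparc stood at 27.8, 200 and 121 CPM in the tumours, against 35.1, 51.6 and 37.2 CPM in non-tumour liver. Tumour 1 was the lowest of the 6 libraries, and the log2 fold change was 1.49 ± 0.49 (edgeR adjusted p = 0.665). Without tumour 1, Col4a2 and Sparc passed the adjusted threshold, at 1.88 and 1.96. Timp2 and Rgs5, which passed against wild-type females in both tissues, gave −0.15 ± 0.30 and 0.47 ± 0.39 between the tissues on the log2 scale (edgeR adjusted p = 0.982 and 0.904).

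Taken by library number, the tumour minus non-tumour difference of the members had a median of 0.04 for number 1, 0.82 for number 2 and 0.41 for number 3 on the log2(CPM + 0.5) scale, against −0.02, −0.01 and 0 over all genes. Members at least 2-fold higher in the tumour numbered 0, 19 and 13, while 3.35%, 5.42% and 7.23% of all genes were. Col1a1 differed by −0.05, 1.74 and 2.68, and Postn by −0.04, 2.24 and 0.60. Acta2 differed by −1.07, 4.46 and −0.48, so its higher mean in tumours rested on tumour 2. Its log2 fold change was 2.01 ± 1.09 with all libraries (edgeR adjusted p = 0.819) and −0.37 without tumour 2. Des, 1.35 ± 0.64 with all libraries, differed by 0.46, 2.40 and −0.30. Smooth muscle markers summed to 150, 423 and 194 CPM in the tumours, against 157, 246 and 164 CPM in non-tumour liver, so tumour 2 was highest there too. Endothelial markers summed to 425 to 557 CPM in the tumours, against 270 to 367 CPM in non-tumour liver. Of the 211 genes tested in the 15 other lists 0 passed in edgeR and 16 had an unadjusted p under 0.05. The part of these cells in the members' levels was not tested.

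**Figure D5:**
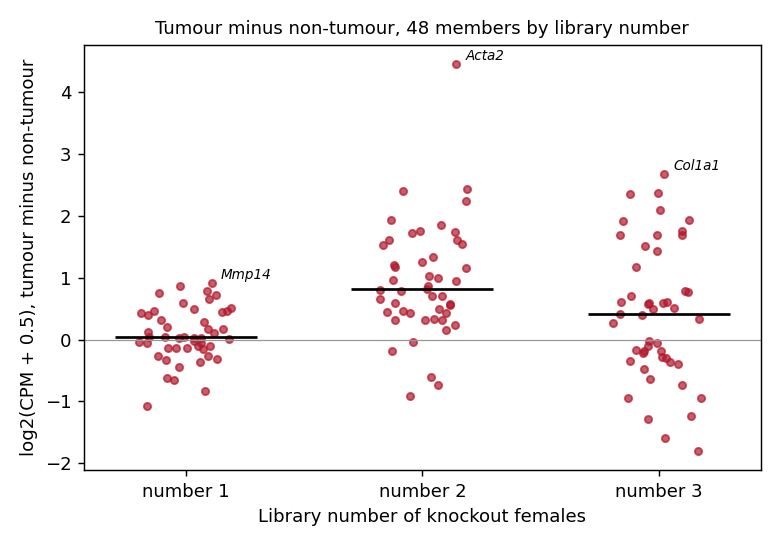
Difference of log2(CPM + 0.5), tumour minus non-tumour, for the 48 members by library number of the knockout females, with the median as a line and the highest member named. The medians are 0.04, 0.82 and 0.41, and Acta2 reaches 4.46 in number 2.

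In males most members had log2 fold changes below 0. Knockout males had lower Timp2, Mmp14 and Ctgf than wild-type males: 3 of 48 members passed, all lower, 6.25% against 20.6% of all genes called in either direction and 6.32% called lower, while 0 members were higher against 14.3% of all genes. The median log2 fold change of the members was −0.42, against 0.11 over all genes, and 14 of 48 lay above 0, against 54.4% of all genes. In 6 members all knockout males lay below all wild-type males (Col4a2, Bgn, Timp2, Mmp14, Ctgf and Ltbp1), 12.5% against 12.2% of all genes, and in 0 above them, against 23.1%. No tumour tissue of males was among the libraries.

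Ctgf (ENSMUSG00000019997, chromosome 10, 24595442 to 24598683) stood at 7.36, 5.63 and 4.92 CPM in knockout males, against 22.4, 11.7 and 10.6 CPM in wild-type males. All knockout libraries were lower, with a log2 fold change of −1.32 ± 0.36 (edgeR adjusted p = 0.0181). Mmp14 (ENSMUSG00000000957, chromosome 14, 54431612 to 54445364), a membrane-bound collagenase, stood at 76.9, 102 and 40.4 CPM in knockout males, against 215, 226 and 130 CPM in wild-type males. The groups did not overlap, and the log2 fold change was −1.39 ± 0.40 (edgeR adjusted p = 0.0252). Timp2 stood at 6.69, 9.72 and 8.14 CPM in knockout males, against 12.2, 16.2 and 19.6 CPM in wild-type males. The groups did not overlap, and the log2 fold change was −0.97 ± 0.31 (edgeR adjusted p = 0.0361). Col4a2 stood at 5.28, 15.5 and 8.99 CPM in knockout males, against 18.8, 18.0 and 26 CPM in wild-type males, and its log2 fold change of −1.08 ± 0.42 did not pass (edgeR adjusted p = 0.0830).

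Fibrillar collagens showed no separation in males. Col1a1 stood at 6.25, 27.8 and 5.77 CPM in knockout males, against 4.98, 3.44 and 28.0 CPM in wild-type males (edgeR adjusted p = 0.947). In each group 1 library was high and the other 2 were low. Col3a1 stood at 20.5, 77.6 and 17.4 CPM in knockout males, against 15.5, 13.1 and 46.9 CPM in wild-type males (edgeR adjusted p = 0.608), with the same 2 libraries highest. Acta2 stood at 1.56, 9.14 and 1.41 CPM in knockout males, against 3.69, 13.2 and 8.12 CPM in wild-type males, with overlap and a log2 fold change of −1.05 ± 1.10 (edgeR adjusted p = 0.538). Tgfb1 stood at 12.5, 12.5 and 11.3 CPM in knockout males, against 7.37, 11.5 and 27.7 CPM in wild-type males, whose number 3 was highest of all libraries. Timp1 had 0, 16 and 3 counts in knockout males and 6, 0 and 0 counts in wild-type males, and its log2 fold change of 1.75 ± 1.46 was −0.46 without knockout male 2.

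Other genes of collagen making changed in both directions in males. Of the 20 collagen processing genes, 2 were higher and 3 lower. Colgalt1, a collagen galactosyltransferase, averaged 54.6 ± 20.9 CPM in knockout males, against 12.4 ± 1.91 CPM in wild-type males (2.13 ± 0.33, edgeR adjusted p = 0.000588). P4ha1, a catalytic subunit of collagen prolyl hydroxylase, averaged 17.2 ± 9.17 CPM in knockout males, against 48.8 ± 11.3 CPM in wild-type males (−1.50 ± 0.33, edgeR adjusted p = 0.00564). Bmp1 was also lower, at −1.44 ± 0.27 (edgeR adjusted p = 0.00239), as it was in knockout females of both tissues. Of the 20 basement membrane genes 4 were lower and 0 higher, among them Lamb3 at 6.43 ± 0.940 CPM in knockout males, against 64.9 ± 9.81 CPM in wild-type males (−3.34 ± 0.36, edgeR adjusted p = 5.05e-05), and Nid2, a nidogen, at −1.89 ± 0.41 (edgeR adjusted p = 0.00553). Of the 25 TGF-beta signalling genes 1 was higher, the oxidase Nox4 (2.54 ± 0.52, edgeR adjusted p = 0.00460), and 3 were lower, among them Eng and, at −1.82 ± 0.45 (edgeR adjusted p = 0.0111), the TGF-beta target Pmepa1. Growth signals had 3 higher of 18 tested, with Vegfa at 1.49 ± 0.28 (edgeR adjusted p = 0.00219), the opposite direction to females. Of 17 matrix degradation genes tested 2 were higher and 1 lower.

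Endothelial markers moved with the male result: 6 of 14 were lower and 0 higher, with Stab1 at −1.63 ± 0.28, Clec4g at −1.27 ± 0.25 and Pecam1 at −1.18 ± 0.30 (edgeR adjusted p = 0.00111, 0.00328 and 0.0130), and their sum was 249 to 322 CPM in knockout males, against 473 to 699 CPM in wild-type males. Of the 17 stellate markers 3 were lower, led by Plin2, a lipid droplet protein that hepatocytes also express (−2.37 ± 0.57, edgeR adjusted p = 0.00991). The macrophage sum was 218 to 369 CPM in knockout males, against 254, 244 and 553 CPM in wild-type males, with 1 of 15 markers higher, Vsig4 (1.92 ± 0.52, edgeR adjusted p = 0.0175). The cholangiocyte sum was 118 to 421 CPM in knockout males, against 110 to 144 CPM in wild-type males, while the 1 of 12 markers that passed, Krt7, was lower (−1.97 ± 0.58, edgeR adjusted p = 0.0265), and at an unadjusted p under 0.05 there were 3 higher and 2 lower. The part of these cells in the lower member levels was not tested. Without knockout male 3 no member passed, where 13.8% of all genes did. Without knockout male 1 or wild-type male 2, 1 member passed, where 14.1% and 18.0% of all genes did. limma-voom called 1, Mmp14, and 17.8% of all genes. Without wild-type male 3, 23.0% of all genes were called. There Mmp14 and Ctgf passed as lower, and Timp2 did not pass (edgeR adjusted p = 0.0575). Tgfbr2 also passed there, in the other direction. It stood at 19.8, 17.6 and 33.5 CPM in knockout males, against 6.66 and 8.59 CPM in wild-type males 1 and 2. The wild-type male left out, number 3, stood at 38.0 CPM.

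The last comparison tested whether the knockout effect differed between the sexes. It took the change in non-tumour females over wild-type females minus the change in males. The labels give non-tumour tissue for these knockout females and liver tissue for knockout males, so sex and kind of tissue cannot be told apart. Abcb11 itself had a difference of −1.99 ± 0.49 on the log2 scale (edgeR adjusted p = 0.0181). The difference was higher in females for Timp2, Rgs5 and Ctgf, 3 of 48 members, 6.25% against 10.9% of all genes in either direction and 2.2% higher. The median of the members was 1.01, against −0.07 over all genes, and 41 of 48 lay above 0, against 48% of all genes. Timp2 had a difference of 2.70 ± 0.47 on the log2 scale (edgeR adjusted p = 0.00292), made of 1.73 in females and −0.97 in males. Rgs5 differed by 2.55 ± 0.61 (edgeR adjusted p = 0.0176), from 2.04 in females and −0.52 in males. Ctgf differed by 2.12 ± 0.54 (edgeR adjusted p = 0.0221), from 0.80 in females and −1.32 in males, and its libraries stood at 26, 16.4 and 29.8 CPM in non-tumour knockout females, against 8.54 and 19.1 CPM in wild-type females, and overlapped.

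Timp2 stayed past the threshold in every alternative that kept both wild-type females. Ctgf did not pass without the female knockout libraries numbered 1 (edgeR adjusted p = 0.0506). Leaving out a wild-type female left 1 library in that group, so only folds are given. The log2 difference of Ctgf was 1.65 without wild-type female 2, and that of Rgs5 was 2.23 without wild-type female 3. Col4a2 and Mmp14 had differences of 1.94 ± 0.64 and 1.87 ± 0.61 that did not pass (edgeR adjusted p = 0.0641 and 0.0612). The 5 fibrillar collagens ranged from −0.18 to 0.61. Of the other lists, Vegfa had a difference of −2.81 ± 0.41 (edgeR adjusted p = 0.00111), and the endothelial genes Stab1 and Pecam1 had 1.89 ± 0.41 and 1.61 ± 0.46 (edgeR adjusted p = 0.0101 and 0.0358). Krt7 differed by 4.23 ± 0.87 (edgeR adjusted p = 0.00799) and C1qa by 2.26 ± 0.57 (edgeR adjusted p = 0.0206), and the calls numbered 1 of 12 cholangiocyte, 3 of 15 macrophage and 2 of 14 endothelial markers, all higher. Of 25 TGF-beta signalling genes 3 were higher and 0 lower. These were Pmepa1, Tgfbi and Itgb6, at 2.23, 1.39 and 7.3 (edgeR adjusted p = 0.0465, 0.0424 and 0.0459). Itgb6 had 0 counts in knockout males. Of 20 collagen processing genes 1 was higher, P4ha2 at 1.98, and 1 lower, Colgalt1 at −2.14 (edgeR adjusted p = 0.0369 and 0.0103). Of 11 smooth muscle markers 1 was called, Mylk, which was lower (−2.22 ± 0.46, edgeR adjusted p = 0.00772). The part of these cells in the members' differences was not tested. The count of called members was 7 without knockout male 2, 5 without tumour 1, 5 without non-tumour 3 and 5 in the groups compared alone, where 8.51%, 11.5%, 7.88% and 10.5% of all genes were called. It was 13 without the low-count filter and 6 with DESeq2 or limma-voom, where 9.76%, 17% and 18.5% of all genes were called.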

How the data were processed

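Reads of 14 liver libraries were aligned with HISAT2 2.0.5 to GRCm38 and counted per gene with featureCounts 1.5.0-p3, per the submitters' processing notes. The authors deposited 1 table with a raw count and an FPKM value per gene and library, per the file headers. The strand setting is not given in the sources used here. FPKM was used as deposited, to order members by level, and was not tested. Whole-number counts entered edgeR 4.0.16 in R 4.3.3: TMM scaling, its standard low-count filter, which kept 17874 of 54532 genes, 1 fit over all 5 groups, the quasi-likelihood test, and Benjamini-Hochberg adjustment over all genes tested (threshold 0.05). Library totals of 14745140 to 19480538 counts set the counting precision. Biological variation had a common coefficient of 0.442. limma 3.58.1 (voom), DESeq2 1.42.0, other scalings and filters, a replicate block and leaving out each library were alternatives.

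The members and lists were chosen with earlier results of these data known. Values are given for every member that passed in a comparison and, whatever their values, for Col1a1, Col1a2, Col3a1, Col4a1, Col4a2, Timp1, Acta2, Des, Tgfb1, Pdgfrb, Lrat and Reln. Of each other list, at most the 3 passing genes with the smallest p are named per comparison. Equal numbers were checked for pairing over 8853 genes: deviations from group means correlated at 0.488, 0.412 and 0.313 between tumour and non-tumour libraries of 1 number, and no label says that these share an animal. The p-values given come from the fit without a block, and counts with a block are in the closing section. They correlated at −0.019, −0.233 and −0.3 between the male groups, and at −0.241 and −0.115 between non-tumour and wild-type females. Promoter sequences came from RefSeq (GRCm38.p6), with entries for 31 members. Some genes of the other lists are not reported here.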

Additional observations from a re-analysis of the deposited data

Results flagged for a closer look

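A test of the difference itself between females, as non-tumour over wild-type liver, and males passed for 3 members: Timp2, Rgs5 and Ctgf. Their log2 differences were 2.70, 2.55 and 2.12 (edgeR adjusted p = 0.00292, 0.0176 and 0.0221). That is 6.25% of the members, against 10.9% of all genes in either direction and 2.2% higher. Sex and kind of tissue cannot be told apart in this test. For Timp2 every knockout female lay above and every knockout male below the wild type of the same sex. Col4a2 had the same separation of libraries, in opposite directions in the sexes, with a difference of 1.94 that did not pass (edgeR adjusted p = 0.0641). Taken singly, 23.2% of all genes lay wholly above the wild type in non-tumour females and 12.2% wholly below it in males. The share of all genes with both was not counted.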

How the results depend on the processing

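The number of members called changed with the filter on low counts, the tool and single libraries, more than with scaling: RLE and upper-quartile scaling gave the same counts of 2, 0, 6, 3 and 3. Without the low-count filter the counts were 7 members and 1739 genes for non-tumour knockout over wild-type females, 8 and 338 for tumours over non-tumour liver, 21 and 2516 for tumours over wild-type females, 9 and 4065 for males and 13 and 2815 for the difference between the sexes. In that order of comparisons DESeq2 called 3 members and 1942 genes, 0 and 29, 19 and 3030, 5 and 4582, and 6 and 3039. Its shares of all genes were 10.9%, 0.16%, 17.0%, 25.6% and 17.0%. limma-voom called 3 members and 3369 genes (18.8%) for non-tumour over wild-type females and 22 and 4622 (25.9%) for tumours over wild-type females. In males it called 1 and 3183 (17.8%), and for the difference 6 and 3304 (18.5%). The compared groups fitted alone gave 12 members and 2489 genes (15.1%) for tumours over wild-type females. In males they gave 3 and 2262 (15.6%), and for the difference 5 and 1824 (10.5%). Leaving out the female knockout libraries numbered 1, an alternative chosen after seeing the data, gave 1 member and 235 genes for non-tumour over wild-type females, 20 genes for tumours over non-tumour liver and 990 genes for the difference. The cause of these shifts was not tested.

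Leaving out 1 library at a time gave 0 to 3 members and 17 to 1215 genes for non-tumour over wild-type females, 0 to 2 and 0 to 42 for tumours over non-tumour liver, and 0 to 12 and 157 to 2540 for tumours over wild-type females. It gave 0 to 4 members and 2462 to 4055 genes in males, and 2 to 7 and 576 to 2604 for the difference. Acta2 in tumours over non-tumour liver ran from −0.37 without tumour 2 (the same with wild-type male 3 left out too) to 2.54 without tumour 1. Timp1 in males ran from −0.46 without knockout male 2 to 5.98 without wild-type male 1, whose group then held 0 counts, so that value is no measured fold.

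With the replicate number as a block, the members called were 2, 0, 7, 4 and 4 and the genes 480, 1, 1372, 3506 and 1610 for non-tumour over wild-type females, tumours over non-tumour liver, tumours over wild-type females, males and the difference. The block fitted to tumours and non-tumour liver alone gave 0 members and 0 genes. With 2 wild-type females and 3 libraries in each other group, calls near the threshold depended on 1 library, and members at a few counts, such as Timp1 in males, had the widest errors.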

Other observations

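Lipid droplet and fat cell genes, measured as a list of markers of another cell type, were among the genes beside the members with the highest folds. The summed level of the 6 adipocyte genes was 76.7 to 390.0 CPM in tumours, 25.7 to 59.2 CPM in non-tumour knockout liver and 9.40 to 9.73 CPM in wild-type females, and 58.5 to 72.3 CPM in knockout males against 118 to 178 CPM in wild-type males. Fabp4, a fatty acid binding protein of fat cells, endothelium and macrophages, was higher by 4.80 ± 0.67 in tumours than in wild-type females (edgeR adjusted p = 0.00145) and by 2.52 ± 0.60 in non-tumour knockout liver (edgeR adjusted p = 0.0355). Cidec, a lipid droplet protein, was higher in tumours by 4.67 ± 0.96 (edgeR adjusted p = 0.0133). The defining adipocyte genes Adipoq and Lep were at 0 in all libraries of non-tumour knockout liver, wild-type females, knockout males and wild-type males, and Lep also in the tumours.

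Lymphocyte markers summed to 22.9 to 81.9 CPM in tumours, 35.9 to 79.2 CPM in non-tumour knockout liver and 45.8 to 51.1 CPM in wild-type females. Mesothelial markers summed to 5.27 to 13.7 CPM in tumours, 5.10 to 14.4 CPM in non-tumour knockout liver and 6.49 to 8.67 CPM in wild-type females.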
